A study of Mus musculus with 4 samples.

Results

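Prostaglandins and leukotrienes are lipid signals made from arachidonic acid, and 8 genes of their synthesis and sensing were followed here, of 33696 genes in the files. These genes were chosen by name, with earlier results of these data known. They were the cyclooxygenases Ptgs1 (ENSMUSG00000047250) and Ptgs2 (ENSMUSG00000032487), the prostaglandin E synthase Ptges (ENSMUSG00000050737), the prostaglandin E2 receptors Ptger2 (ENSMUSG00000037759) and Ptger4 (ENSMUSG00000039942), the lipoxygenase Alox5 (ENSMUSG00000025701), its partner Alox5ap (ENSMUSG00000060063) and the leukotriene B4 receptor Ltb4r1 (ENSMUSG00000046908). All 8 had unique molecular identifier (UMI) counts in all 4 libraries. Their levels were read across neutrophils, macrophage and monocyte subsets, dendritic cells (DCs) and lymphocytes, which were set by marker genes.

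Single-cell RNA was sequenced from the 5′ end in live CD45+ cells sorted from tumors grown under the skin of male C57BL/6NHsd mice, aged 8 to 10 weeks, from the KPC mouse pancreatic cancer line. The groups were untreated mice, mice injected once in the tumor with ADU-S100, an agonist of the cytosolic DNA sensor STING, mice injected intraperitoneally with the agonist antibody 4H8 against the receptor for lymphotoxin-β (anti-LTβR), and mice that received both (combination). Tumors were resected on day 14, and 10 tumors were pooled in each group before sorting, so that each group was 1 library with no replicate. Differences below are therefore differences between 4 libraries, no test between treatments was possible, and the intervals cover counting error only.

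Cyclooxygenases convert arachidonic acid to prostaglandin H2, the common precursor of the prostaglandins and thromboxane. Ptgs1 is the constitutive enzyme and Ptgs2 the inducible one, and Ptges converts prostaglandin H2 to prostaglandin E2, which is known for dampening lymphocyte and DC responses in tumors through Ptger2 and Ptger4. In the other branch, Alox5 with Alox5ap makes leukotriene A4, and Lta4h hydrolyzes it to leukotriene B4, a chemoattractant for neutrophils that acts on Ltb4r1.

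After filtering, 7524 cells were kept from the untreated library, 13444 from ADU-S100, 13223 from anti-LTβR and 14667 from the combination. Median depth fell between 2158 UMIs per deposited cell in the combination and 4712 in the untreated library. Pairs of libraries shared 34 to 83 cell barcodes. Neutrophils made up 6.54% of untreated leukocytes (482 cells), 39.4% with ADU-S100 (5203 cells), 7.23% with anti-LTβR (941 cells) and 8.57% with the combination (1236 cells). Macrophages and monocytes made up 39.9% to 53.9% of leukocytes in the 4 libraries. The neutrophil class carried all 9 of its fixed markers in every library, and S100a8 and S100a9, its most abundant ones, summed to between 43340 and 68950 counts per 1000000 UMIs (CPM) in it and to between 21.7 and 79.6 CPM in the macrophage and monocyte class.

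The 2 genes that stood more than 2-fold higher in macrophages and monocytes after ADU-S100 were Ptgs2 and Ptges, so the 250 bases before their start sites are shown, 5′ to 3′ on the strand of the gene, from RefSeq (GRCm38.p6). Capitals mark every match to 9 short motifs searched on both strands; in each sequence a pair of matches overlaps and forms a single run of capitals. The Ptgs2 sequence lies at chr1:150099781-150100030 on the plus strand and the Ptges sequence at chr2:30903298-30903547 on the minus strand.
Ptgs2: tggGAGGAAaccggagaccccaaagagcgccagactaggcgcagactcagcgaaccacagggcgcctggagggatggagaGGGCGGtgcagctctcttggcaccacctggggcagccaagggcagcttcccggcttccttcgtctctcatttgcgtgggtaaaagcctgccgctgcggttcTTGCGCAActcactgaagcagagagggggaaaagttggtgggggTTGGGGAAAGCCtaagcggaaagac
Ptges: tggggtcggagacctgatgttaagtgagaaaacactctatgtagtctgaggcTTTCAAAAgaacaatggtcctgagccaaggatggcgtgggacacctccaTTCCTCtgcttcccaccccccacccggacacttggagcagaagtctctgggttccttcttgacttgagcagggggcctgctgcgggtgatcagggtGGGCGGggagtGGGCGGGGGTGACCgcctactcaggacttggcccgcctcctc
The Ptgs2 sequence held 2 matches to the C/EBP motif TTNNGNAA, TTGCGCAA at 69 bases and TTGGGGAA at 25 bases before the start. It also held GGGGAAAGCC, a match at 23 bases to the NF-κB motif (GGG, any 5 bases, then CC) that overlaps the second C/EBP match, with the PU.1 core GAGGAA at 247 bases and the GC box GGGCGG at 170 bases. The Ptges sequence held TTTCAAAA, a C/EBP match on the opposite strand, at 198 bases, the NF-κB match GGGGGTGACC at 38 bases, the PU.1 core on the opposite strand as TTCCTC at 149 bases, and the GC box at 53 and 42 bases, the latter overlapping the NF-κB match. These letters are common: of 32851 mouse promoter sequences of this length, 36.8% held the C/EBP motif, 45.8% the NF-κB motif, 23.3% the PU.1 core and 32.7% the GC box. Neither sequence held the TATA box TATAAA (12.4% of promoters), the E-box CACGTG (6.02%), the cyclic AMP response core TGACG (17.8%), the AP-1 motif TGANTCA (6.75%) or the interferon response motif (GAAA, any 2 bases, then GAAA; 2.98%). These are matches of letters in 1 window that ends at the RefSeq start, and binding was not measured. Bases past that start were not searched, so a motif not found here can lie outside the window.

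To find which leukocytes carried each gene, UMIs were summed over the cells of a type and given as CPM of that type with an exact Poisson interval (95%). Levels were compared between cell types for 1 gene at a time and not between genes.

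**Figure D1:**
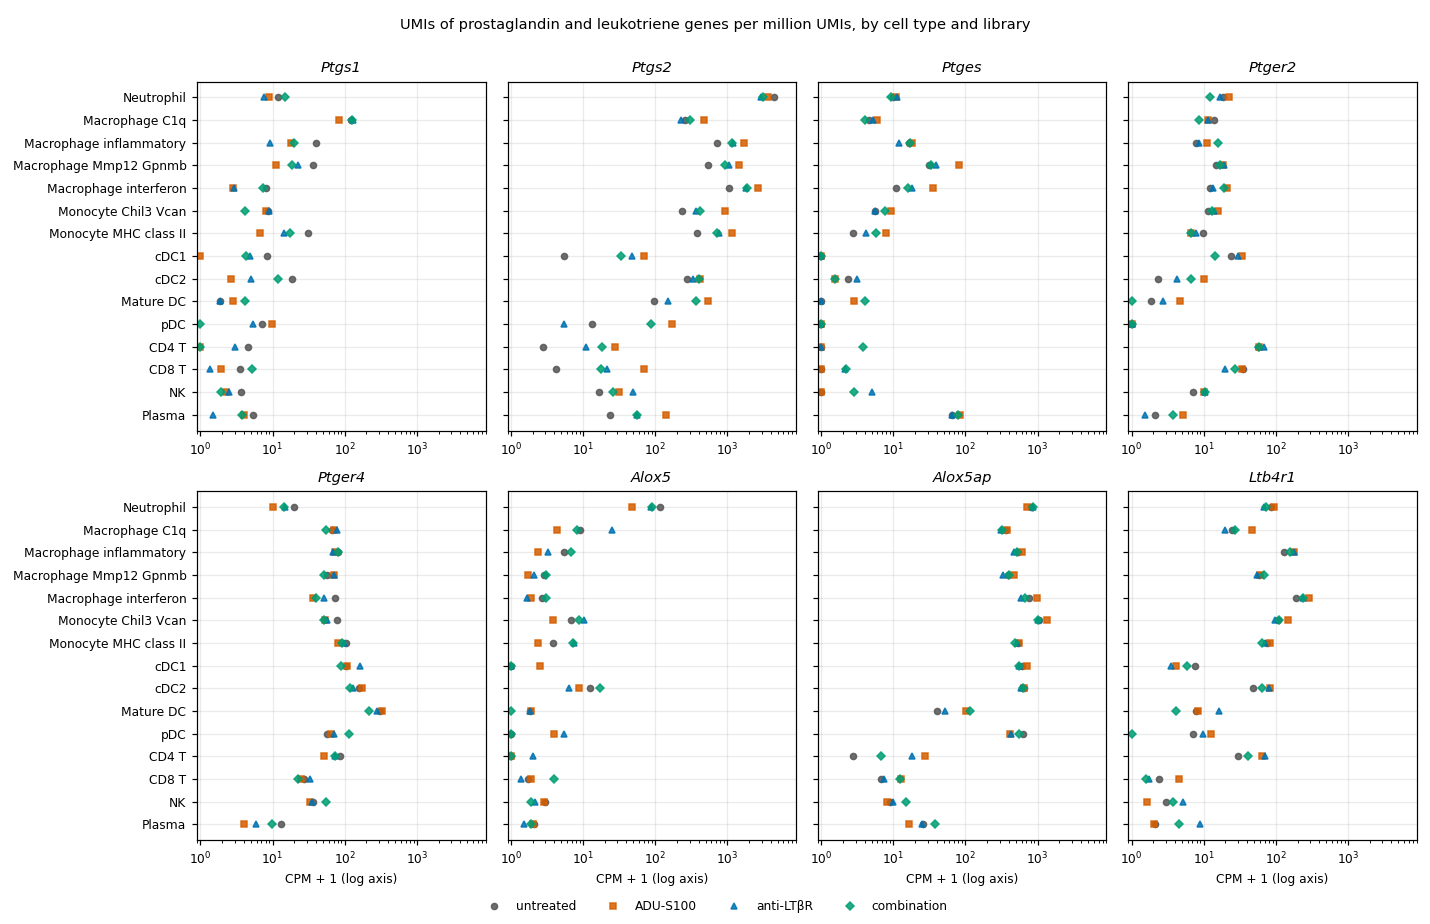
Level of each of the 8 genes (CPM + 1, log axis) in 15 cell types, with 1 point per library. Ptgs2 was highest in neutrophils, Ptgs1 in C1q macrophages, Ptges in plasma cells and Mmp12 Gpnmb macrophages, Ptger2 in CD4 T cells, Ptger4 in mature DCs, Alox5 in neutrophils, Alox5ap in Chil3 Vcan monocytes and Ltb4r1 in interferon macrophages; mast cells or basophils are not drawn.

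Ptgs1, the constitutive cyclooxygenase, was a gene of C1q macrophages, the subset named for its complement C1q genes. In these cells it was at 120 CPM (interval 114–126) in the untreated library, 83.0 (77.6–88.7) with ADU-S100, 130.4 (123–138) with anti-LTβR and 125 (117–133) with the combination. Its range there did not overlap that of any other type, the next being Mmp12 Gpnmb macrophages at 10.3 to 35.1 CPM. Within the C1q subset, the sub-cluster led by Ch25h and Vcam1 held 131.6, 90.4, 164 and 147 CPM in the order untreated, ADU-S100, anti-LTβR and combination, and the sub-cluster led by Ccl8 and Cbr2 held 67.0, 33.7, 83.6 and 76.6. Neutrophils held 6.60 to 13.98 CPM of Ptgs1 and T cells 0.806 to 3.02, the latter from 2 to 15 UMIs a library. Ptgs1 is also a platelet gene, and the 7 platelet markers read in C1q macrophages summed to 585, 893, 532 and 455 CPM in the order untreated, ADU-S100, anti-LTβR and combination, with Gp1bb at 0 in all 4 libraries and Gp9 at 0 in the treated ones; their part in the Ptgs1 level was not tested.

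Ptgs1 was lower after treatment across macrophages and monocytes as a whole, at 70.6 CPM untreated, 28.9 with ADU-S100, 44.2 with anti-LTβR and 47.5 with the combination. The ADU-S100 library stood lowest and the untreated library highest, and the intervals of these libraries were far apart. The log2 ratio to untreated was -1.29 for ADU-S100 (-1.40 to -1.18), -0.67 for anti-LTβR (-0.77 to -0.58) and -0.57 for the combination (-0.68 to -0.47). Weighting the subsets as in the untreated library moved the ADU-S100 ratio to -0.68, which is short of 2-fold, and the share of C1q macrophages in the class was smaller with ADU-S100 (1037 of 5273 cells), anti-LTβR (1488 of 7023) and the combination (1495 of 7646) than untreated (1290 of 3493). In C1q macrophages alone the ADU-S100 ratio was -0.53 (-0.65 to -0.41) and the other ratios were 0.12 and 0.05. In monocytes high in MHC class II Ptgs1 was at 30.3, 5.73, 13.2 and 16.5 CPM, and in Mmp12 Gpnmb macrophages at 35.1, 10.3, 21.7 and 17.6 CPM, in the same order, so that each treated library was below the untreated one in both subsets.

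Ptgs2, the inducible cyclooxygenase, was at its highest in neutrophils among the types with over 100 cells. It reached 4384 CPM (4248–4522) in untreated neutrophils, 3719 (3685–3754) with ADU-S100, 2979 (2897–3063) with anti-LTβR and 3156 (3065–3250) with the combination. All 4 values lay above every macrophage and monocyte subset, the nearest being interferon macrophages at 1053 to 2642 CPM. Mast cells or basophils were at a like level, 2919 to 3958 CPM, but were only 12 to 29 cells a library. After each cell was thinned to 1000 UMIs, a Ptgs2 UMI was found in 80.8% (76.7–84.6) of untreated neutrophils, 77.8% (76.6–79.0) with ADU-S100, 73.8% (70.5–76.9) with anti-LTβR and 76.1% (72.6–79.3) with the combination. In thinned T cells the share was 1.08%, 3.28%, 2.31% and 2.80%. Median depth before thinning was 1032 to 2114 UMIs in neutrophils and 1678 to 3745 in T cells.

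Neutrophils of all 3 treated libraries held less Ptgs2 per UMI counted than untreated ones, with log2 ratios of -0.24 for ADU-S100 (-0.28 to -0.19), -0.56 for anti-LTβR (-0.62 to -0.50) and -0.47 for the combination (-0.54 to -0.41). The ADU-S100 ratio turned to 0.031 with median-of-ratios scaling and to 0.075 when each cell was named from its own markers, so no direction is drawn for it. The median gene in neutrophils also lay below untreated, by -0.37, -0.21 and -0.17 in the same order. The neutrophil sub-cluster with most cells over the 4 libraries, unnamed and led by Scimp and Gbp5 (160, 917, 124 and 190 cells), held 5867, 5210, 4061 and 4278 CPM of Ptgs2 in the order untreated, ADU-S100, anti-LTβR and combination. Among the subsets that could be named, the cells led by Hp and Lrg1, with 6 markers of mature cells, held 3866, 3294, 2898 and 2696 CPM of Ptgs2, and the interferon cells, 15 to 173 a library, held 2789, 4297, 4470 and 3409. A sub-cluster of 3 to 24 cells a library, led by Ngp and Camp and with 5 markers from the same list, held 3243, 660, 633 and 1253 CPM, the first from 3 cells. The cells led by Atp6v0d2 and Gpnmb, with 5 markers of activated neutrophils, held 2230, 2631, 2459 and 897, the last from 30 cells. Both leading genes are also among the leading genes of Mmp12 Gpnmb macrophage sub-clusters, and a part of macrophage RNA in these cells was not tested.

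Macrophages and monocytes held more Ptgs2 in every treated library than untreated. The class was at 386.8 CPM (379–394) untreated, 1292 (1281–1303) with ADU-S100, 750.1 (741–759) with anti-LTβR and 691 (681–702) with the combination. The log2 ratio to untreated was 1.74 (1.71–1.77), 0.96 (0.92–0.99) and 0.84 (0.80–0.87). Only the first passed 2-fold here, while wider cell filters gave 1.06 for anti-LTβR and 1.00 for the combination. Cells with a UMI after thinning made up 21.4% (20.04–22.9), 47.4% (46.0–48.7), 32.3% (31.1–33.4) and 32.7% (31.6–33.9) of the class, and without thinning the untreated and ADU-S100 shares were 43.4% and 71.1%, with median depths of 6919 and 7374 UMIs. Weighting the named subsets as in the untreated library left an ADU-S100 ratio of 1.34. RNA released from neutrophils, estimated from S100a8 and S100a9, could have added at most 2.19, 5.50, 1.89 and 3.10 CPM.

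Ptgs2 was unevenly spread over the macrophage and monocyte subsets, and the ADU-S100 library was the highest in each of the 6 named ones. Interferon macrophages held 1053, 2642, 1798 and 1886 CPM in the order untreated, ADU-S100, anti-LTβR and combination, and inflammatory macrophages 730.1, 1694, 1191 and 1180. MHC class II monocytes held 376, 1166, 759.5 and 716, and Chil3 Vcan monocytes 239, 931, 366 and 422. C1q macrophages were among the lowest, at 256, 481, 229 and 308 CPM, and their anti-LTβR value was below the untreated one (log2 ratio -0.16, -0.24 to -0.08). The Mmp12 Gpnmb subset held 543, 1455, 1047 and 916 CPM but was made of unlike parts. Its sub-cluster led by Gpnmb and the heat-shock gene Hspa1b held 1133, 2131, 1981 and 1543 CPM, and its sub-cluster led by Mmp12 and Atp6v0d2 held 298, 477, 359 and 423. The ADU-S100 ratio ran from 0.91 in C1q macrophages to 1.96 (1.83–2.10) in Chil3 Vcan monocytes, and 5 of 6 subsets were past 2-fold. The ratio in inflammatory macrophages, 1.21, was short of it with wider cell filters (0.85) and at clustering resolution 2 (0.36). The share of all genes past 2-fold higher was 1.33% in C1q, 2.89% in inflammatory, 3.68% in Mmp12 Gpnmb and 3.26% in interferon macrophages, and 2.19% in Chil3 Vcan and 2.6% in MHC class II monocytes.

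**Figure D2:**
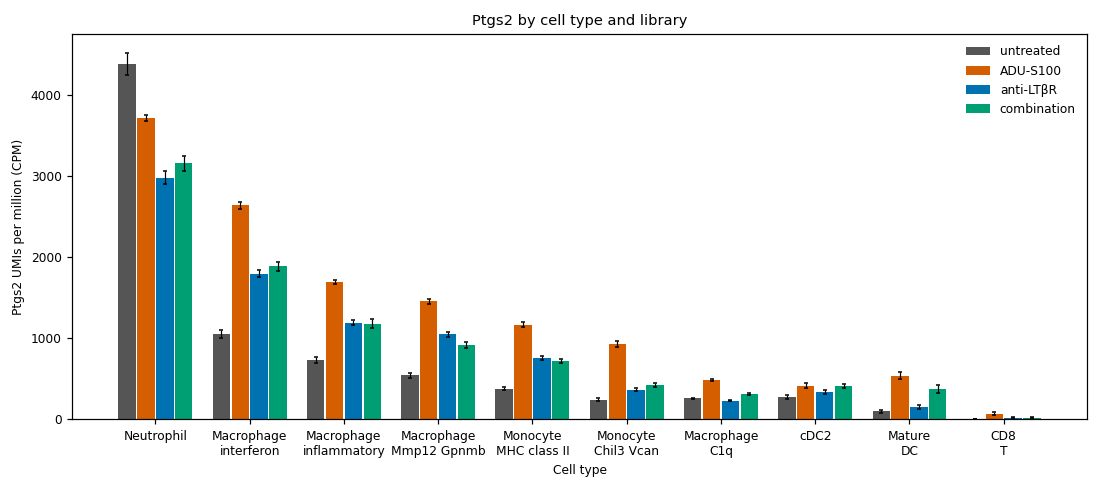
Ptgs2 level (CPM, bars) with exact Poisson intervals (95%, counting error only) in 10 cell types of the 4 libraries. Neutrophils were highest in every library, at 2979 to 4384 CPM, and the ADU-S100 bar was the highest of the 4 in each of the 6 macrophage and monocyte subsets; the order of the ADU-S100 and untreated neutrophil bars turned with median-of-ratios scaling and with naming of single cells.

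In DCs Ptgs2 was at 145.6 CPM untreated, 371 with ADU-S100, 232 with anti-LTβR and 319 with the combination. All 3 treated libraries lay above the untreated one, with log2 ratios of 1.35 (1.22–1.48), 0.67 (0.54–0.81) and 1.13 (0.99–1.27), but the first and last were 0.92 and 0.71 in thinned cells, short of 2-fold. The 9 neutrophil markers summed to 1788, 3380, 2392 and 2206 CPM in DCs, with Cxcr2 and Retnlg at 0 untreated and Mmp9 at 0 in the combination, and neutrophil RNA could have added at most 0.355, 40.7, 3.06 and 3.64 CPM of Ptgs2. Less that amount, the ratios were 1.19, 0.66 and 1.12. Type 2 conventional DCs carried most of it, at 276, 415, 339 and 409 CPM. Mature DCs were at 96.2, 536, 148 and 370.0 CPM, and the 3 cells with most UMIs held 31% to 55% of the Ptgs2 UMIs of a library. Type 1 conventional DCs had 6, 44, 37 and 20 UMIs in all, and with ADU-S100 neutrophil RNA could account for up to 62.8 of their 69.1 CPM.

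Lymphocytes held far less Ptgs2 than neutrophils. T cells held 18.0, 54.0, 39.1 and 34.4 CPM, and in the ADU-S100 library up to 28.4 CPM could come from neutrophil RNA and up to 17.6 from macrophage RNA. The neutrophil marker list summed to 371, 1026, 464 and 426 CPM in the same T cells. Its part in the T cell values was not tested. In the untreated library neutrophil and macrophage RNA could add up to 0.367 and 5.73 CPM. Natural killer cells held 15.4 to 49.0 CPM of Ptgs2 and plasma cells 22.8, 139, 55.3 and 55.96 CPM in the order untreated, ADU-S100, anti-LTβR and combination. In plasma cells the neutrophil marker list summed to 209.5, 522.4, 141.6 and 305.9 CPM, with Retnlg at 0 with anti-LTβR. The macrophage list summed to 812, 876.8, 400.2 and 1025 CPM there, and the part of either in the plasma cell values was not tested. B cells held 68.5 CPM with anti-LTβR and 83.5 with the combination, from 38 UMIs each, and had 0 UMIs in the 6 untreated and 8 ADU-S100 cells.

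Ptges, the synthase for prostaglandin E2, was highest in plasma cells and in Mmp12 Gpnmb macrophages. Plasma cells held 64.0 CPM (48.8–82.6) untreated, 84.0 (66.8–104) with ADU-S100, 64.6 (56.8–73.1) with anti-LTβR and 79.0 (70.8–87.9) with the combination, and these intervals overlap one another. Mmp12 Gpnmb macrophages held 29.9 (23.0–38.3), 81.6 (74.1–89.6), 38.3 (32.2–45.3) and 31.8 (25.04–39.8) CPM, so that the ADU-S100 library stood apart from the other 3, which overlapped. In thinned plasma cells 9.28% to 17.7% had a Ptges UMI, against 0% to 0.234% of thinned T cells, where 0 of 549 cells with ADU-S100 allows up to 0.67% of cells with a UMI at this depth (exact binomial limit), which does not limit the cells that express the gene. Median depth was 3184 to 15330 UMIs in plasma cells.

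Among macrophage and monocyte sub-clusters Ptges was highest in one that was also high in Ptgs2. The Gpnmb and Hspa1b sub-cluster held 69.5, 130 and 71.96 CPM in the untreated, ADU-S100 and anti-LTβR libraries and 60.8 in the combination, whereas the Mmp12 and Atp6v0d2 sub-cluster held 13.4, 11.9, 13.5 and 8.96. Interferon macrophages were at 9.99, 34.7, 17.2 and 15 CPM and inflammatory ones at 15.3, 17.4, 10.8 and 15.9. Over the whole class Ptges was at 7.50 CPM (6.49–8.62) untreated, 24.8 (23.2–26.3) with ADU-S100, 10.6 (9.60–11.7) with anti-LTβR and 9.86 (8.69–11.1) with the combination. The log2 ratio of ADU-S100 to untreated was 1.72 (1.501–1.95), and 1.16 with the subsets weighted as in the untreated library. The combination held less Ptges than ADU-S100 alone, by -1.33 (-1.53 to -1.13). Neutrophils, where Ptgs2 was highest, held only 8.39 to 10.2 CPM of Ptges, and DCs 0.586 to 1.21 CPM from 3 to 6 UMIs a library. The neutrophil sub-cluster led by Atp6v0d2 and Gpnmb held 6 of the 8 Ptges UMIs of untreated neutrophils (83.1 CPM) and 65 of the 120 with ADU-S100 (31.6 CPM). It had 0 with anti-LTβR and with the combination.

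The same cells were then checked for both enzymes of prostaglandin E2 synthesis. In thinned macrophages and monocytes, Ptges was found in 1.12% of cells with a Ptgs2 UMI against 0.495% of cells without one in the untreated library. The shares were 3.58% (2.87–4.41) against 1.51% (1.08–2.06) with ADU-S100, 2.08% (1.51–2.78) against 0.720% (0.493–1.01) with anti-LTβR and 1.71% (1.21–2.35) against 0.608% (0.401–0.883) with the combination. The share was higher in cells with Ptgs2 in all 4 libraries, and the intervals were apart in the 3 treated ones. Within Mmp12 Gpnmb macrophages the shares were 2.82% against 2.19% untreated, 8.48% (5.71–12.0) against 3.73% (2.06–6.19) with ADU-S100, 6.64% (3.76–10.7) against 1.39% (0.451–3.20) with anti-LTβR and 4% against 2.12% with the combination, and the intervals were apart with anti-LTβR alone. The Mmp12 Gpnmb subset joins sub-clusters that differ in both genes, as given above, and shares within each sub-cluster were not read. Intervals met in all libraries within C1q, interferon and inflammatory macrophages, and in interferon macrophages with anti-LTβR the share was 2.02% with Ptgs2 and 2.06% without. In neutrophils the order was mixed, at 0.308% against 1.30% untreated, 0.803% against 1.41% with ADU-S100, 0.879% against 0.495% with anti-LTβR and 0.398% against 0% with the combination, and all 4 pairs of intervals overlapped.

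**Figure D3:**
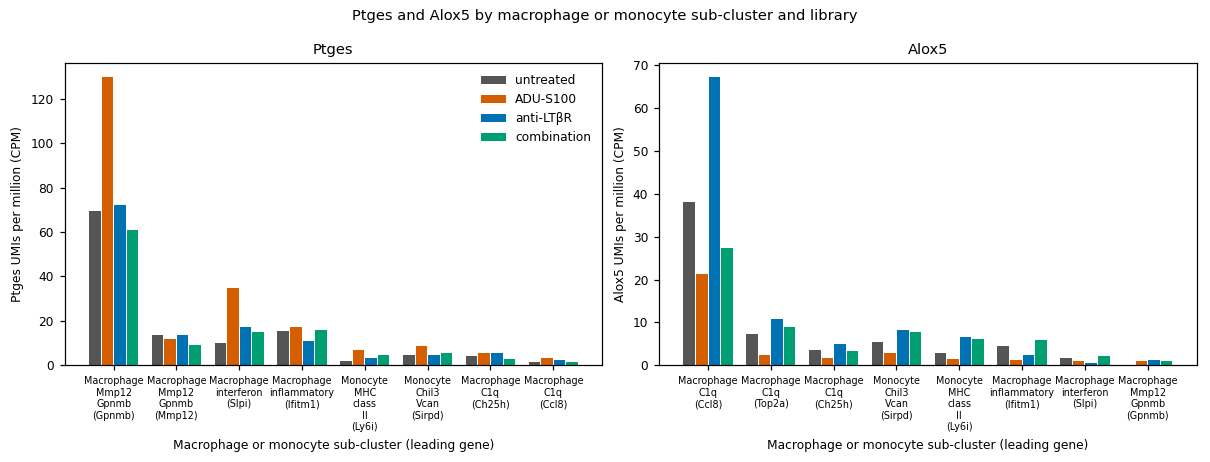
Ptges (left) and Alox5 (right) levels (CPM, bars) in named macrophage and monocyte sub-clusters, with the leading gene in brackets, in the 4 libraries. Ptges was highest in the Gpnmb sub-cluster, at 60.8 to 130 CPM, and Alox5 in the Ccl8 sub-cluster, at 21.3 to 67.1 CPM.

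Regulatory T cells, those with a Foxp3 UMI, were kept apart from CD4 T cells and were not ranked. Of the prostaglandin E2 receptors, Ptger2 was highest in CD4 T cells. These held 55.4 CPM (37.7–78.7) untreated, 57.2 (33.3–91.6) with ADU-S100, 66.7 (51.6–84.9) with anti-LTβR and 57.0 (34.8–88.0) with the combination, on 17 to 66 UMIs a library. The 4 intervals overlapped, and the range over libraries did not reach that of CD8 T cells, at 18.7 to 34.4 CPM. Type 1 conventional DCs held 13.2 to 33.0 CPM and neutrophils 11.2 to 21.1, and natural killer cells 6.04 to 9.42. Macrophages and monocytes were at 12.2, 13.2, 12.2 and 11.1 CPM, and no ratio to untreated had an interval apart from 0 (0.12, 0.01 and -0.13 on the log2 scale).

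Ptger4, the other receptor, was highest in mature DCs, the Ccr7 and Fscn1 cells that carry antigen to lymphocytes. They held 307 CPM (276–340) untreated, 331 (298–366) with ADU-S100, 275 (246–306) with anti-LTβR and 215 (181–254) with the combination, which was the lowest and whose interval was apart from those of untreated and ADU-S100. The log2 ratio of combination to untreated was -0.51 (-0.81 to -0.23). Type 2 conventional DCs followed at 117 to 173 CPM and type 1 at 87.4 to 160. Macrophages and monocytes held 77.9, 65.7, 71.8 and 62.1 CPM, with each treated library slightly below the untreated one and ratios of -0.25, -0.12 and -0.33. The median gene of the class lay at -0.21, -0.04 and -0.08 in the same order, so the ADU-S100 value was close to that of the median gene. Interferon macrophages were at 73.3 CPM untreated and 34.9 with ADU-S100, a ratio of -1.07 (-1.40 to -0.74), which fell short of 2-fold with doublets kept (-0.53), with wider cell filters (-0.58), at resolution 2 (-0.30), as the mean over cells (-0.90), with median-of-ratios scaling (-0.89) and without the 3 cells with most UMIs (-0.90). CD4 T cells held 50.5 to 85.8 CPM and CD8 T cells 21.8 to 31.7. Thinned mature DCs had a Ptger4 UMI in 19.0% to 33.3% of cells, and thinned macrophages and monocytes in 5.72% to 7.99%. Neutrophils, at 9.17 to 18.8 CPM, and plasma cells, at 3.07 to 11.9, were among the lowest.

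Alox5, the lipoxygenase of leukotriene synthesis, was highest in the few mast cells or basophils and in neutrophils. Mast cells or basophils held 473, 485, 286 and 549.9 CPM, from 6 to 27 UMIs a library. Neutrophils held 115 CPM (93.8–139) untreated, 47.1 (43.3–51.1) with ADU-S100, 88.2 (74.5–104) with anti-LTβR and 90.9 (75.9–108) with the combination. The ADU-S100 library was the lowest and its interval lay apart from the other 3, which overlapped. The log2 ratio to untreated was -1.29 (-1.59 to -0.97), and -0.91 when each cell was named from its own markers, short of 2-fold. Thinned neutrophils had an Alox5 UMI in 9.70%, 4.02%, 8.04% and 7.88% of cells, and thinned T cells in 0.0537% to 0.182%.

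Alox5 was unevenly spread over the neutrophil sub-clusters. The mature cells led by Hp and Lrg1 held 156, 116, 153 and 140 CPM in the order untreated, ADU-S100, anti-LTβR and combination. The sub-cluster with most cells over the 4 libraries, which had no name and was led by Scimp and Gbp5, held 158, 109, 104 and 155 CPM from 55, 268, 25 and 39 UMIs, and these were 55 of the 104 Alox5 UMIs of untreated neutrophils and 268 of the 565 with ADU-S100. A small sub-cluster of 3 to 24 cells a library, led by Ngp, Camp and Ltf, genes of neutrophil granules made early in maturation, held 236, 236, 236 and 321 CPM from 4, 10, 28 and 10 UMIs. Neutrophils led by Atp6v0d2 and Gpnmb held 14.6 CPM in 948 cells of the ADU-S100 library, and an unnamed sub-cluster led by Hspa1a and Hspa1b held 16.4 CPM in 488 cells of that library. The mature cells led by Hp and Lrg1 were 77 of 482 untreated neutrophils, 440 of 5203 with ADU-S100, 205 of 941 with anti-LTβR and 364 of 1236 with the combination. The cells led by Atp6v0d2 and Gpnmb were 39, 948, 57 and 30, and most neutrophils of each library lay in sub-clusters without a name.

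Among named macrophage sub-clusters Alox5 was highest in one part of the C1q subset. The sub-cluster led by Ccl8 and Cbr2 held 38.1 CPM untreated (215 cells), 21.3 with ADU-S100 (176 cells), 67.1 with anti-LTβR (665 cells) and 27.3 with the combination (251 cells), whereas the Ch25h sub-cluster held 1.66 to 5.08 CPM. C1q macrophages as a whole were at 8.04, 3.40, 24.5 and 7.16 CPM, and the anti-LTβR ratio to untreated was 1.60 (1.27–1.96). The Ccl8 and Cbr2 sub-cluster made up 665 of 1488 C1q cells with anti-LTβR against 215 of 1290 untreated, so the level within it and its share of the subset were both higher in that library. An unnamed sub-cluster led by Retnla, Lyz1 and Ear2 held 78.3, 6.41, 20.3 and 36.3 CPM. The whole class was at 7.20, 1.85, 10.3 and 6.89 CPM, and its ADU-S100 ratio was -1.95 (-2.36 to -1.57).

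Alox5ap, which hands arachidonic acid to Alox5, was spread far more widely over myeloid cells than its partner. After mast cells or basophils, at 1142 to 1433 CPM, Chil3 Vcan monocytes were highest, at 1032, 1351, 1011 and 1009 CPM. Neutrophils held 804 CPM (746–864) untreated, 714 (699–729) with ADU-S100, 855 (811–901) with anti-LTβR and 853 (806–902) with the combination. Macrophages and monocytes held 486 (477–494), 598 (590–605), 498 (491–506) and 480.2 (472–489), and both conventional DC types held 547 to 709.8. Mature DCs were far lower, at 38.8, 102, 50.9 and 113 CPM, and T cells held 6.53 to 16.3. The ADU-S100 library was the lowest of the 4 in neutrophils (log2 ratio -0.17, -0.28 to -0.06) and the highest in macrophages and monocytes (0.30, 0.27–0.33). The median gene in neutrophils lay lower still with ADU-S100, at -0.37, so no direction is drawn for Alox5ap there.

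Neutrophil subsets also differed in Alox5ap, with 1176 to 1361 CPM in the mature cells led by Hp and Lrg1, 393 to 548 in interferon cells and 249 to 406 in the cells led by Atp6v0d2 and Gpnmb. Thinned neutrophils with an Alox5 UMI also had an Alox5ap UMI in 59.0%, 55.6%, 71.0% and 65.4% of cells, against 46.8%, 42.3%, 46.4% and 50.2% of those without. The share was higher in cells with Alox5 in all 4 libraries, and the intervals were apart with ADU-S100 (48.0 to 63.0 against 40.9–43.8) and anti-LTβR (58.0 to 81.8 against 42.7–50.1).

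Ltb4r1, the high-affinity receptor for leukotriene B4, was highest in interferon macrophages rather than in neutrophils. Interferon macrophages held 189 CPM (169–210) untreated, 287 (273–302) with ADU-S100, 241 (227–255) with anti-LTβR and 237 (218–257) with the combination, the untreated library being the lowest and ADU-S100 the highest. Inflammatory macrophages held 128, 178, 177 and 157 CPM, Chil3 Vcan monocytes 107, 146, 96.5 and 109.6, and C1q macrophages 23.96, 45.5, 18.9 and 26.1. Neutrophils were at 83.9 (66.1–105), 92.1 (86.8–97.7), 68.4 (56.4–82.1) and 72.02 (58.8–87.3) CPM. Their ratios to untreated were 0.13, -0.30 and -0.22, each with an interval that held 0.

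In macrophages and monocytes as a whole Ltb4r1 was at 60.7 CPM untreated, 119.7 with ADU-S100, 93.4 with anti-LTβR and 80.7 with the combination, with log2 ratios of 0.98 (0.90–1.06), 0.62 (0.54–0.71) and 0.41 (0.32–0.50), none past 2-fold. The ADU-S100 ratio passed it with wider cell filters (1.11), naming of single cells (1.01) and median-of-ratios scaling (1.19), and was 0.71 in thinned cells and 0.50 with subsets weighted as in the untreated library. Among lymphocytes CD4 T cells held 28.6, 63.9, 68.7 and 39.9 CPM, from 16 UMIs in the untreated and 68 in the anti-LTβR library, while CD8 T cells held 0.606 to 3.61 CPM and natural killer cells 0.644 to 4.15.

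Each treated library was compared with the untreated one for the 8 genes together, calling a gene higher or lower when its ratio passed 2-fold with at least 20 UMIs over both libraries. In macrophages and monocytes 2 of 8 genes, Ptgs2 and Ptges, were higher with ADU-S100, where 4.83% of all genes were, and 2 of 8, Ptgs1 and Alox5, were lower, where 5.62% were. None of the 8 passed 2-fold in either direction with anti-LTβR (3.25% of all genes higher and 1.82% lower) or with the combination (3.63% and 1.61%). The median log2 ratio of the 8 genes was 0.21, 0.27 and -0.04 against -0.21, -0.04 and -0.08 over all genes tested.

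In neutrophils none of the 8 genes was higher with ADU-S100 (4.88% of all genes) and 2 were lower, Ptger4 and Alox5, where 15.9% of all genes were. The Ptger4 call rests on 17 untreated UMIs, and its ratio of -1.07 was -0.59 with doublets kept, -0.80 with median-of-ratios scaling, -0.46 with naming of single cells and -0.51 without the 3 cells with most UMIs. None of the 8 passed 2-fold with anti-LTβR (2.84% higher and 8.38% lower) or with the combination (2.42% and 5.3%). In DCs 7 of the 8 genes had 20 UMIs. Ptgs2 was higher and Ptgs1 lower with ADU-S100 (2.39% and 3.51% of all genes), Ptgs1 was lower with anti-LTβR (2.47% higher and 1.98% lower), and Ptgs2 was higher with the combination (3.06% and 2.5%). Ptgs1 in DCs came from 52, 8, 16 and 23 UMIs, and its anti-LTβR ratio of -1.63 turned to 0.27 with naming of single cells, while its ADU-S100 ratio of -2.22 was -0.90 with doublets kept. In T cells 5 or 6 of the 8 genes had 20 UMIs, and Ptgs2 was higher with ADU-S100 (2.19% of all genes higher and 3.66% lower) and with anti-LTβR (4.05% and 2.43%; -0.052 in place of 1.12 with naming of single cells), and Alox5ap with the combination (3.26% and 2.5%). Less the most that neutrophil RNA could add, T cell Ptgs2 was at 25.7 CPM with ADU-S100 against 17.6 untreated, short of 2-fold, and macrophage RNA could add up to 17.6 and 5.73 CPM. T cell Alox5ap was at 16.3 CPM in the combination and 6.53 untreated, where macrophage RNA could add up to 18.1 and 7.20 CPM, and the 10 macrophage markers, none at 0, summed to 472 and 226 CPM in these T cells.

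**Figure D4:**
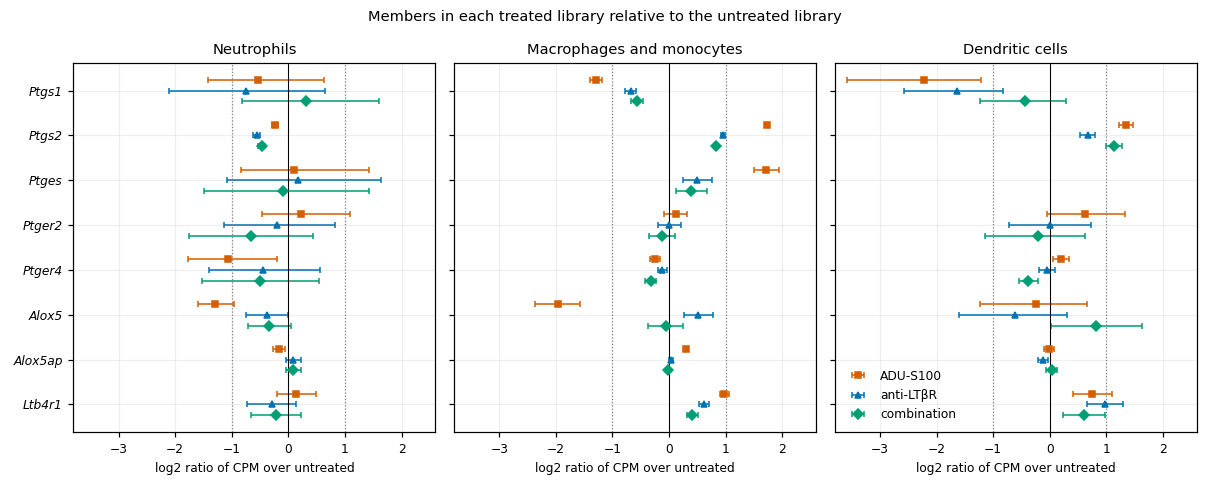
Log2 ratio of CPM in each treated library over the untreated one (points) with exact binomial intervals (95%, counting error only) for the 8 genes in neutrophils, macrophages and monocytes, and DCs; dotted lines mark 2-fold, and Ptges in DCs had too few UMIs. In macrophages and monocytes Ptgs2 (1.74) and Ptges (1.72) were past 2-fold higher and Ptgs1 (-1.29) and Alox5 (-1.95) past 2-fold lower with ADU-S100; the neutrophil Ptgs2 ratio with ADU-S100 turned from -0.24 to 0.031 with median-of-ratios scaling and to 0.075 with naming of single cells.

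Adding anti-LTβR to ADU-S100 was read by setting the combination against ADU-S100 alone. In macrophages and monocytes Alox5 was more than 2-fold higher, where 5.15% of all genes were, and Ptges more than 2-fold lower, where 2.46% were. Ptgs2 was at 691 against 1292 CPM, a log2 ratio of -0.90 (-0.93 to -0.88). Against anti-LTβR alone none of the 8 passed 2-fold (1.62% of all genes higher and 1.22% lower), and Ptgs2 was at 691 against 750.1 CPM. In neutrophils none of the 8 passed 2-fold against ADU-S100 (8.32% higher and 5.04% lower), and against anti-LTβR only Ptgs1 did, from 20 and 11 UMIs (3.14% and 2.29%). In DCs Ptgs1 and Alox5 were more than 2-fold higher in the combination than with ADU-S100, from 23 against 8 and 29 against 17 UMIs (4.02% of all genes higher and 2.82% lower), and than with anti-LTβR, from 16 and 17 UMIs in that library (1.97% and 1.61%). In T cells Ltb4r1 was more than 2-fold lower in the combination than with ADU-S100 (10.2 against 24.2 CPM; 3.61% of all genes higher and 1.83% lower) and than with anti-LTβR (22.6 CPM; 1.54% and 2.23%). All comparisons with the untreated library share that library, and the comparisons of the combination share it in turn.

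Over all leukocytes of a library, the level of a gene joins its level per type with the share of each type. Ptgs2 was at 386 CPM of all leukocytes untreated, 1584 with ADU-S100, 604 with anti-LTβR and 614 with the combination. Neutrophils held 23.6%, 42.3%, 13.4% and 16.4% of these UMIs, against 6.54%, 39.4%, 7.23% and 8.57% of cells, and macrophages and monocytes held 60.7%, 50.3%, 75.04% and 65.3%. Macrophages and monocytes thus held more of the Ptgs2 UMIs than neutrophils did in all 4 libraries, although the level per UMI counted was highest in neutrophils. For Ptges, plasma cells held 19.6%, 6.27%, 34.8% and 52.1% of UMIs, while they made up 1.41%, 0.484%, 3.05% and 5.68% of leukocytes, and macrophages and monocytes held 65.8%, 77.7%, 54.9% and 39.3%. Neutrophils held 27.5%, 77.6%, 24.3% and 32.4% of Alox5 UMIs, and macrophages and monocytes, at a lower level per UMI counted but with more cells, held 50.3%, 10.4%, 63.1% and 44.6%. Macrophages and monocytes held 79.0% to 88.4% of Ptgs1 UMIs in the 4 libraries.

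**Figure D5:**
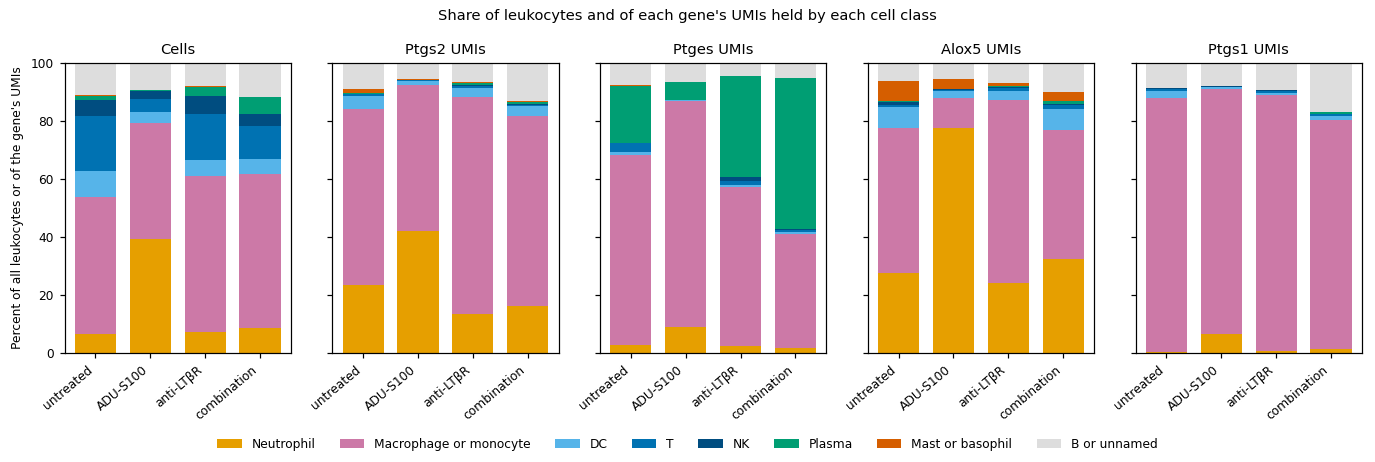
Share of leukocytes (left panel) and of the UMIs of Ptgs2, Ptges, Alox5 and Ptgs1 (percent, stacked bars) held by each cell class in each library. Plasma cells held 52.1% of Ptges UMIs in the combination and 6.27% with ADU-S100, and neutrophils held 77.6% of Alox5 UMIs with ADU-S100 and 24.3% to 32.4% in the other libraries.

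A list of 30 other genes of the pathway was read in the same way. Its ratios are given here only against the untreated library, in macrophages and monocytes, neutrophils and DCs. In macrophages and monocytes 21 of 30 had 20 UMIs with ADU-S100 and none passed 2-fold (4.83% of all genes higher and 5.62% lower). With anti-LTβR 22 had 20 UMIs and 3 were higher, the prostaglandin-degrading enzyme Hpgd (16.3 against 5.34 CPM, log2 ratio 1.60), the lipoxygenase Alox15 and the second leukotriene B4 receptor Ltb4r2, and the prostaglandin receptor Ptger1 was lower (3.25% of all genes higher and 1.82% lower). With the combination 22 had 20 UMIs and the prostaglandin transporter Slco2a1 and Alox15 were higher (3.63% and 1.61%). All of these but Hpgd had 27 UMIs or fewer in a library. Tbxas1, the thromboxane synthase, was at 371, 220, 314 and 324 CPM in macrophages and monocytes, and Pla2g4a, the phospholipase that frees arachidonic acid, was at 188, 251, 234 and 192.

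In neutrophils 13 of the 30 had 20 UMIs with ADU-S100, where 4.88% of all genes were higher and 15.9% lower. The prostaglandin D synthase Hpgds (22.5 against 7.73 CPM) and the transporter Abcc1 (85.8 against 38.6 CPM) were higher. Ptgr1 and Mgst2 were each at 1.75 CPM with ADU-S100 and had 0 UMIs untreated, for which a floor of 3 UMIs is 3.31 CPM and the exact Poisson interval reaches 4.07 CPM, so no direction is given for them. Another 3 were lower, Tbxas1 (11.4 against 35.3 CPM), the leukotriene C4 synthase Ltc4s and the receptor Cysltr1. With anti-LTβR 9 had 20 UMIs and Abcc4, Ltc4s and Cysltr1 were lower (2.84% of all genes higher and 8.38% lower), and with the combination 8 had them and Cysltr1 was lower (2.42% and 5.3%). In DCs none of 16 passed 2-fold with ADU-S100 (2.39% of all genes higher and 3.51% lower) or with anti-LTβR (2.47% and 1.98%), and Ptgis, Hpgd and Ptgir of 18 were higher with the combination (3.06% and 2.5%), from 12, 32 and 12 UMIs. Lta4h, which makes leukotriene B4 from the product of Alox5, was at 10.9 to 22.2 CPM in neutrophils, 32.1 to 36.0 in macrophages and monocytes, and 159 to 193 in natural killer cells. Hpgds was highest in C1q macrophages, at 118 to 167 CPM, where Ptgs1 was highest too, and Hpgd in Chil3 Vcan monocytes, at 14.8 to 55.7. The leukotriene receptor Cysltr2 was at 144 to 183 CPM in natural killer cells and 112 to 138 in T cells.

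The genes most like each of the 8 in their pattern over cell types were taken from 7918 genes as the 3 with the highest Pearson correlation of log2 levels. Each correlation was over 57 points, made of 15 cell types in up to 4 libraries, so that points share libraries, depth and cell types. For Ptgs2 they were Il1rn (0.96), the interleukin-1 receptor antagonist, Tarm1 (0.95) and Ccrl2 (0.94), and for Alox5ap Nfam1 (0.93), Bst1 (0.92) and Gpr35 (0.92). For Ptger4 they were Fbxw11 (0.93), Ctnna1 (0.90) and Tmem168 (0.89), and for Ltb4r1 Prdx5 (0.90), Tgm2 (0.89) and Noct (0.89). For Ptges they were Cped1 (0.86), the plasma cell syndecan Sdc1 (0.84) and Rhob (0.82), and for Ptgs1 the transferrin gene Trf (0.85), Sec14l1 (0.79) and Timp2 (0.78). Alox5 had Sycp2 (0.83), Siglece (0.79) and Pi16 (0.78), and Ptger2 had Rbpj (0.70), Cln3 (0.69) and Fxyd5 (0.68).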

How the data were processed

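The authors deposited, per sample, a sparse matrix of UMI counts per gene and cell with no normalization, and every deposited value was found to be a whole number. The file headers name Cell Ranger 8.0.1, whereas the labels name Cell Ranger 7.1.0 with mm10, and they name a GEM-X 5′ kit where the study's methods name an earlier one. The 8 genes, the pathway list and the marker lists were chosen with earlier results of these data known.

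Cells with 300 to 5000 genes and at most 6% mitochondrial UMIs were kept, as in the study's methods. Scrublet (scanpy 1.11.5) marked 0, 0, 1 and 0 cells as doublets by its own threshold, so the cells with the highest scores were removed at 0.4% per 1000 deposited cells (305, 949, 857 and 1066 cells). Cells of the 4 libraries were clustered together (2000 variable genes, 30 components, 20 neighbours, leidenalg 0.10.2 at resolution 1) without the 8 genes and the pathway list. Clusters were named from marker lists with thresholds set after the data were seen, and 6.89% to 10.6% of cells stayed unnamed. Clusters with markers of 2 classes, 1.45% to 4.63% of cells, were left out. CD4 and CD8 T cells were set by Cd4, Cd8a and Cd8b1 UMIs. T cells with a Foxp3 UMI were left out of the CD4 T cells as regulatory T cells. These were 176, 53, 122 and 57 cells in the order untreated, ADU-S100, anti-LTβR and combination. The cell names of the study were not used, and rebuilt names alone can make values differ from it.

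CPM came from UMIs summed per type, with exact Poisson intervals. Ratios had 0.5 UMI added and exact binomial intervals, and shares of cells had Clopper-Pearson intervals after thinning to 1000 UMIs (95% throughout, computed with scipy 1.17.1). Shallower cells were left out of shares, which kept for example 402 of 482 untreated and 660 of 1236 combination neutrophils. Intervals cover counting error only. With 1 library per group no p-value was computed. Genes were named by rule: the 8 genes, pathway genes past 2-fold or at least 4-fold above other types, and the 3 most like each gene. Ratios were tested on simulated data. Promoters came from RefSeq (GRCm38.p6), which matched 7 of the 8 genes; Alox5ap was not matched. In GENCODE M21 Ptger2, Ptger4, Alox5ap, Ptgs1 and Ptges overlap other genes, and counts there may be shared if strand was not used.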

Additional observations from a re-analysis of the deposited data

Results flagged for a closer look

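Ptgs2 stood on opposite sides of the untreated library in neutrophils and in macrophages and monocytes. Its log2 ratio was -0.24 in neutrophils against 1.74 in macrophages and monocytes with ADU-S100, -0.56 against 0.96 with anti-LTβR and -0.47 against 0.84 with the combination. The intervals lay on either side of 0 in each, but the neutrophil value with ADU-S100 turned to 0.031 and 0.075 under other processing. Alox5 with anti-LTβR was at -0.38 in neutrophils and 0.51 in macrophages and monocytes, and Alox5ap with ADU-S100 at -0.17 and 0.30. The median gene in neutrophils lay at -0.37 with ADU-S100, so no direction is drawn for Alox5ap there. With 1 library per group none of these differences was tested.

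The sort was for CD45+ cells, yet 156, 221, 200 and 249 kept cells in the order untreated, ADU-S100, anti-LTβR and combination carried non-leukocyte markers and were used in no comparison. In them Ptges was at 32.6 CPM with anti-LTβR and Alox5ap at 27.9 CPM with ADU-S100, each above the untreated library beyond counting error. These values were not tested between libraries.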

How the results depend on the processing

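No paired analysis was possible because each group was 1 library with 1 replicate number. For the same reason no replicate could be left out. The log2 ratio of Ptgs2 in macrophages and monocytes with ADU-S100, 1.74 as reported, was 1.83 with wider cell filters, 1.77 at resolution 2, 1.68 as the mean over cells, 1.95 with median-of-ratios scaling, 1.68 in thinned cells and 1.34 with subsets weighted as in the untreated library, so it kept its direction and stayed past 2-fold. In neutrophils the value of -0.24 became 0.075 with naming of single cells, 0.031 with median-of-ratios scaling and -0.18 without the 3 cells with most UMIs. The share of macrophages and monocytes with a Ptgs2 UMI, 21.4% untreated and 47.4% with ADU-S100, was 13.1% and 34.0% at 500 UMIs and 43.4% and 71.1% without thinning. Genes past 2-fold in macrophages and monocytes with ADU-S100, 10.4% of all tested with at least 20 UMIs, were 4.68% with at least 200 UMIs and 22.7% with at least 1 UMI. The 4 of the 8 genes past 2-fold there were 3 to 5 under the alternatives. Levels moved too. Of 352 levels, 85 lay outside their counting interval with doublets kept, 90 at resolution 2, 115 with wider cell filters and 118 as the mean over cells. With mitochondrial, ribosomal, immunoglobulin, S100a8 and S100a9 genes left out of the total, 154 did. Naming of single cells moved 64 of 160 levels outside, so these intervals do not cover processing.

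Some ratios turned direction. With naming of single cells, Ptgs1 in DCs with anti-LTβR became 0.27 and Ptgs2 in T cells with anti-LTβR -0.052. At resolution 2, Ptgs1 in inflammatory macrophages became 0.31 with ADU-S100 and 0.82 with the combination. In thinned cells, Ptgs2 in plasma cells with anti-LTβR became -0.059, Ptger2 in inflammatory macrophages with the combination -0.16, Ptgs1 in interferon macrophages 1.04 with ADU-S100 and 0.95 with anti-LTβR, and Ptges in MHC class II monocytes with ADU-S100 -1.84. The cause was not tested. Of 10 ratios past 2-fold in neutrophils, macrophages and monocytes, and DCs, 6 to 10 stayed past it under the alternatives run on all of them. Of 26 in macrophage and monocyte subsets, 14 stayed past it with doublets kept, 15 at resolution 2, 17 with wider cell filters, 18 in thinned cells, 20 as the mean over cells and 23 to 26 under the others. The subtraction of neutrophil RNA and the weighting of subsets were chosen after seeing the data. Ratios from fewer than 20 UMIs over both libraries, such as Ptges in DCs, were by rule not called, whatever their size.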

Other observations

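Mast cells or basophils, 29, 17, 12 and 20 cells in the order untreated, ADU-S100, anti-LTβR and combination, were high in Ptgs2, Alox5 and Alox5ap together. They held 3957, 3708, 3958 and 2919 CPM of Ptgs2 and 1243, 1433, 1383 and 1142 CPM of Alox5ap. No UMI of Ltc4s, the leukotriene C4 synthase that acts on the product of Alox5, was found in them in any library. Gamma-delta T cells had 13, 0, 14 and 2 UMIs of Ltb4r1.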
